A study of Arabidopsis thaliana with 18 samples.

Results

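H3K27me3 of the wild-type F1 hybrid of the Arabidopsis thaliana accessions Col and C24 was set against that of both parents. The members were chosen by their labels: 2 wild-type F1 peak lists, 2 wild-type Col lists and 2 wild-type C24 lists, which are 6 of the 18 samples of the series. On the 5 nuclear chromosomes these lists hold 30142 of the 48745 peaks in the series, with 5822 and 4046 peaks in F1 replicates 1 and 2, 4837 and 2879 in Col and 6244 and 6314 in C24. Each peak or gene was placed by whether the mark was shared with both parents, a single parent or neither.

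All plants were seedlings at 14 days, kept on Murashige and Skoog medium containing 1% sucrose. Days were short, with 8 h of light at 22 °C, and nights of 16 h were at 18 °C. Chromatin from 1.5 g of shoots was crosslinked and precipitated with an antibody against H3K27me3. The F1 is a cross of Col and C24 with no mutation named. The clf F1, clf Col and clf C24 plants, used below as a separate readout, carry mutations in the CURLY LEAF gene: clf Col carries a T-DNA insertion (SALK_139371), clf C24 an ethyl methanesulfonate allele that changes an amino acid of the SET domain, and clf F1 was made by crossing them. Whether replicates are separate plantings is not stated in the labels, and each p-value therefore reflects only the variation among these libraries, which could be technical.

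H3K27me3 is laid down by Polycomb repressive complex 2, in which CURLY LEAF (CLF) and SWINGER are the catalytic subunits active in shoots. The mark covers whole gene bodies of developmental regulators that are silent in a tissue, such as floral and seed genes in leaves, and is copied through cell division. In a hybrid, each parental allele can carry its own state of the mark in the same nucleus, so a peak in the F1 does not say which allele carries it.

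In covered length, the lists differed more by replicate number than by genotype. Peaks covered 16.68 and 8.06 Mb in F1, 16.70 and 4.29 Mb in Col and 15.63 and 6.51 Mb in C24, and the tags inside them came to 6.91 and 1.89 M in F1, 8.27 and 1.11 M in Col and 5.24 and 0.841 M in C24. In each genotype replicate 1 covered more of the genome with wider peaks, the median width being 2345.5 and 1691 bp in F1, 2923 and 1301 bp in Col and 2000 and 914 bp in C24. F1 averaged 4934 ± 1256 peaks and 12.37 ± 6.09 Mb (SD, n = 2), against 5068 ± 1610 peaks and 10.78 ± 6.30 Mb in the parents (SD, n = 4). An exact two-sided permutation test over the 15 splits gave p = 0.9333 for peak number, p = 0.6667 for covered length and p = 0.8 for median width, and the smallest p this design allows is 0.1333.

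Genes missing from every list of a replicate number could be marked in every list of the other. A gene was called marked where peaks covered at least 200 bp of its body, and 147 of 32815 genes (0.448%) were marked in all 3 lists of replicate 2 and in no list of replicate 1. Of these, 146 had 0 bp covered in replicate 1, and 122 were marked in all 3 clf lists, as were 4828 of all genes. The stem cell genes WUS and CLV3 were among the 147. The widest peaks were 9191 and 7840 bp in F1, 9291 and 6139 bp in Col and 9312 and 5356 bp in C24. Whether wider domains were left out of the lists is not stated in the sources, so 0 bp in a list means only that no peak was listed there. In the other direction, 1299 genes were marked in all 3 lists of replicate 1 and in no list of replicate 2. For this reason F1 was compared with parents of its own replicate number first.

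C24 replicate 2 stood apart. It covered 5 of 12 genes listed as active in every cell or in green shoots (the tubulin gene TUB2, GAPC1, PP2AA3, PSBO1 and RBCS1A), whereas F1, Col and C24 replicate 1 covered none of the 12. Over all genes, C24 replicate 2 marked 16.5%, and the other wild-type lists marked 7.65% to 19.1%. Of the genes that C24 replicate 2 marked, 22.1% had at least 10 RPKM (reads per kilobase of gene, scaled to library size) in clf C24 mRNA. The share was 9.61% for C24 replicate 1 and 29.7% over all genes in the same mRNA. Set against clf mRNA of their own cross, the F1 lists had 8.96% and 9.24% and the Col lists 11.8% and 6.71%. Counts of gene classes over both replicates are given with and without it.

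F1 peaks were shared with both parents more than with Col alone, C24 alone or neither in each replicate. An F1 peak was called shared with a parent list when that list covered at least 200 bp of it. In replicate 1, 73.7% of F1 peaks were shared with both parents, 8.28% with Col alone, 14.3% with C24 alone and 3.74% (218 of 5822) with neither. In replicate 2 the shares were 48.6%, 8.82%, 26.2% and 16.3% (661 of 4046).

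Each genotype had peaks that neither of the other genotypes shared. Within replicate number their share was 3.74% and 16.3% in F1, 4.49% and 12.02% in Col and 11.4% and 44.0% in C24. F1 had the lowest share in replicate 1 and lay between Col and C24 in replicate 2. When a peak in either list of a parent counted, the F1 peaks with neither parent came to 2.47% and 2.74%, and those with both to 78.7% and 84.4%. Without C24 replicate 2 the mean share with both parents was 78.1%, against 81.5% with it. The mean share with neither parent was 4.79% without it, against 2.61% with it, and it was 5.73% without Col replicate 1 and 6.72% without C24 replicate 1. For scale, 53.9% of the peaks of F1 replicate 1 lay in F1 replicate 2, and 82.9% of those of replicate 2 lay in replicate 1.

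**Figure D1:**
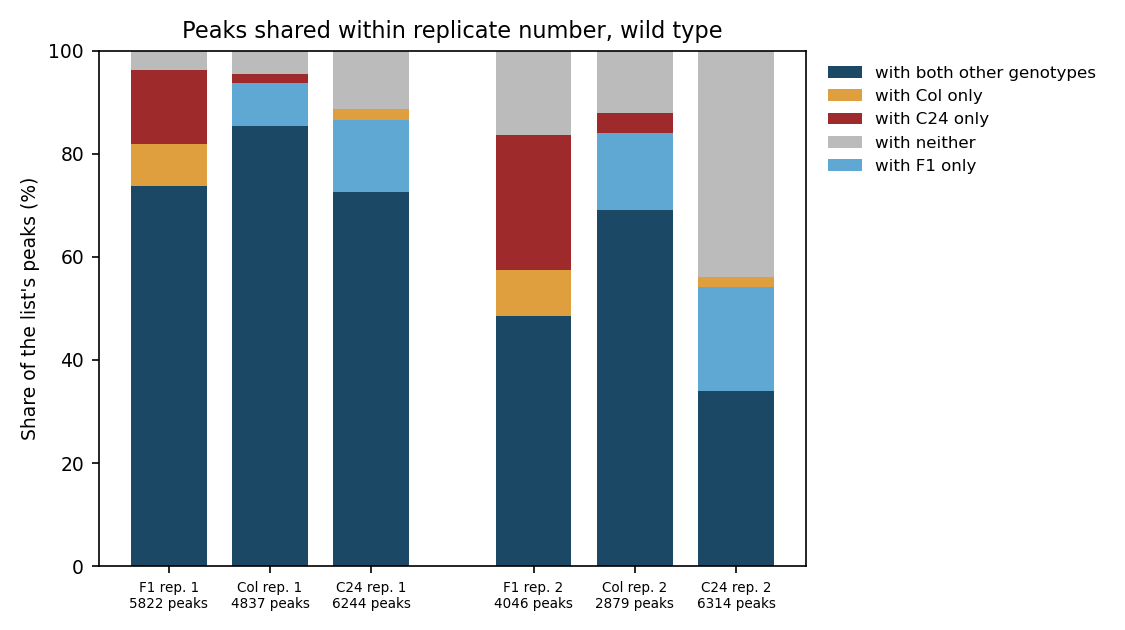
Stacked bars give the share of each wild-type list's peaks (%) that at least 200 bp of peaks in the other 2 genotypes of the same replicate number cover, in F1, Col and C24 of replicate 1 and then of replicate 2. The grey share with neither other genotype is 3.74% and 16.3% in F1, and is largest, 44.0%, in C24 replicate 2.

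The F1 peaks with neither parent were the narrow, low-scoring end of each list. In replicate 1 their median width was 1357 bp and their median score 84.4, while F1 peaks shared with both parents had 2524 bp and 795. In replicate 2 the values were 1294 bp and 70.2, while peaks shared with both had 2020 bp and 202. Scores are the authors' own values per peak, and the lowest score in every list was 50. F1 peaks shared with Col alone or C24 alone lay between, with median scores of 154 and 165 in replicate 1 and 102 and 96.3 in replicate 2.

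Counted in bases, F1 kept nearly all territory common to its parents. F1 peaks covered 95.8% of the bases marked in both Col and C24 in replicate 1 and 95.7% in replicate 2. They covered 47.5% and 68.6% of the bases marked in Col and not in C24, and 52.7% and 36.2% of those marked in C24 and not in Col. Bases of F1 peaks outside both parents made up 1.02 Mb (6.12%) in replicate 1 and 2.98 Mb (36.9%) in replicate 2, where the 2 parent lists were the shortest in covered length.

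The same order held for genes. Of all 32815 genes, 19.1% were marked in F1 replicate 1 and 12% in F1 replicate 2, beside 18.4% and 7.65% in the Col lists and 18.8% and 16.5% in the C24 lists. Of genes marked in both parents, F1 marked 96.95% (4543 of 4686, 95% Wilson interval 96.4% to 97.4%) in replicate 1 and 95.1% (1858 of 1953, 94.1% to 96.0%) in replicate 2. Of genes marked in neither parent, it marked 1.12% (282 of 25287) and 2.63% (707 of 26848). These intervals cover counting error only, and neighbouring genes under the same peak are not independent.

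Genes marked in a single parent fell between these, and the order of the parents turned between replicates. F1 marked 44.9% of the genes marked in Col alone in replicate 1 (613 of 1366, 42.3% to 47.5%) and 57.7% in replicate 2 (321 of 556, 53.6% to 61.8%). It marked 57.1% of the genes marked in C24 alone in replicate 1 (843 of 1476, 54.6% to 59.6%) and 30.2% in replicate 2 (1043 of 3458, 28.7% to 31.7%). The replicate 2 value for C24 rests on the C24 list that covered active genes. The 3 clf lists, which share no library with these, gave 98.75% for both clf parents, 63.9% for clf Col alone, 57.0% for clf C24 alone and 0.772% for neither.

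**Figure D2:**
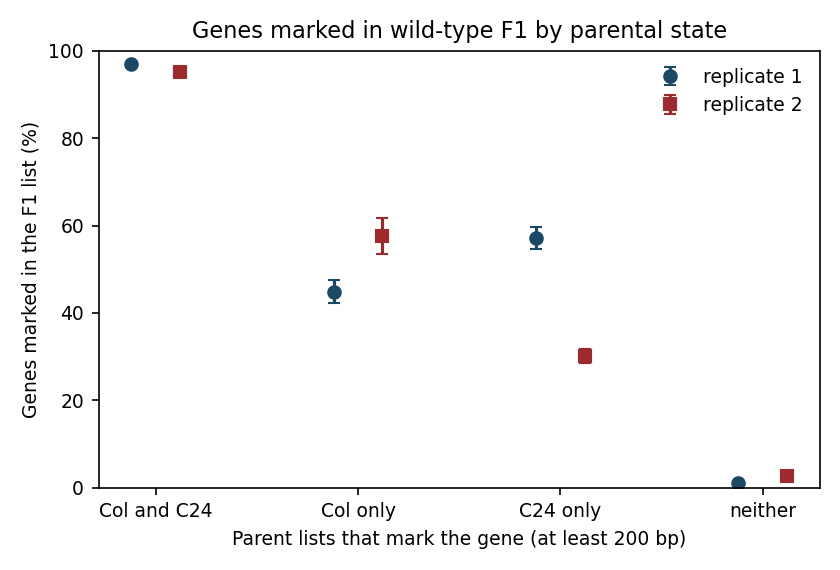
Points give the share of genes (%) marked in the F1 list, by whether Col and C24 of the same replicate number mark the gene, and bars are 95% Wilson intervals for counting error. Genes marked in both parents sit at 96.95% and 95.1%, and the Col and C24 points swap order between replicates.

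F1 marked a larger share of single-parent genes at the longest parental cover than at the shortest. The share rose at every step only for Col-only genes of replicate 1. In replicate 1, F1 marked 18.4%, 58.1%, 66.8% and 69.1% of Col-only genes with 200 to 500, 500 to 1000, 1000 to 2000 and at least 2000 bp covered in Col. For C24-only genes of replicate 1 the shares were 38.5%, 55.7%, 62.5% and 60.1%. In replicate 2 they were 54.5%, 50.7%, 68.1% and 66.7% for Col-only genes (21 genes in the longest class), and 30.1%, 24.9%, 37.7% and 63.3% for C24-only genes. The second of these C24 classes holds 2101 of the 3458 genes.

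The parent's median cover was longer in the genes that F1 marked than in those it did not, by an amount that varied. For Col-only genes it was, in replicate 1, 1110 bp where F1 marked them and 345 bp where it did not, and 937 and 821 bp in replicate 2. For C24-only genes it was 1195 and 1035 bp in replicate 1, and 945 and 832 bp in replicate 2.

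Tag density (tags per kilobase of peak) in regions of a single parent was set against that in regions called in all 3 genotypes. In regions shared with Col alone, the median density was 213 in F1 and 328 in Col in replicate 1, and 205 in F1 and 234 in Col in replicate 2. In regions shared with C24 alone it was 275 in F1 and 235 in C24 in replicate 1, and 199.6 in F1 and 118 in C24 in replicate 2. These densities are not scaled between libraries.

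Divided by the median F1 over parent ratio of regions called in all 3 genotypes, the ratio had a median of 0.803 and 0.905 for Col in replicates 1 and 2, below the middle 50% of those regions (0.916 to 1.09 and 0.920 to 1.07). For C24 the medians were 0.944 and 0.951, inside their middle 50% (0.918 to 1.10 and 0.903 to 1.09). The values describe only regions with a called F1 peak (405 and 355 for Col, 801 and 1055 for C24), and peaks of each library were called with their own widths, so they are not a measure of a change in signal.

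Requiring the same state in both replicates left 24443 of 32815 genes. A genotype counted as marked with 2 of 2 lists and as unmarked with 0 of 2. Where a library was left out, its genotype was judged by the list that remained. Class counts without a library could therefore only stay equal or grow, and are no measure of stability. Both F1 lists marked 3256 genes (9.92%), both Col lists 1888 (5.75%) and both C24 lists 3184 (9.7%). Marked in F1 and both parents were 1388 genes (4.23% of all genes), and 22793 (69.5%) were marked in none of the 6 lists. Of the 1444 genes that both parents marked in every list, 1388 (96.1%) were marked in both F1 lists, 54 in a single F1 list and 2 in none. Without C24 replicate 2, 1612 of 1765 such genes (91.3%) were marked in both F1 lists, 151 in a single list and 2 in none, and 24508 genes were marked in no list.

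Genes of a single parent were split in F1. Of 93 genes marked in both Col lists and no C24 list, 28 were marked in both F1 lists, 61 in a single list and 4 in none. Of 420 genes marked in both C24 lists and no Col list, 127 were marked in both F1 lists, 208 in a single list and 85 in none. The share in both F1 lists was 30.1% for Col and 30.2% for C24. With a single F1 list kept, the measure was looser, the share of the same genes marked in that list. For Col it was 94.6% in F1 replicate 1 and 31.2% in F1 replicate 2, and for C24 61.7% and 48.3%. Leaving out a parental list changed which genes were counted. The share in both F1 lists was then, for Col, 18.6% and 3.25% without Col replicates 1 and 2, and 60.9% without C24 replicate 1. For C24 it was 54.8% without Col replicate 1, and 6.29% and 16.5% without C24 replicates 1 and 2.

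Genes marked in both F1 lists and in no parental list numbered 16 (0.0488% of all genes). LBD15, a lateral organ boundaries domain gene, had 1995 and 1828 bp of its 1995 bp body covered in F1 replicates 1 and 2 and 0 bp in all 4 parental lists. Its F1 peaks lay at chromosome 2, 16901587 to 16909675 with 3710 tags and 16902197 to 16904024 with 461 tags (TAIR10). Both exceeded the score floor of 50, at 213 and 168.

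IAA14, an Aux/IAA repressor of auxin response, had 1900 and 1359 bp covered in F1 and 0 bp in the parents. Among the other named members, ERF10, of the ethylene response factor family, had 1280 and 1172 bp covered in F1, and NAC024, a NAC transcription factor gene, 963 and 963 bp. NAC024 and AT1G60370 lay under the same peak in each F1 list. The remaining named genes were AT1G13610, AT4G39756, AT1G33170, AT3G10595 and ROH1, which binds an exocyst subunit, with 846 to 2300 bp covered in F1 and 0 bp in the parents. The 16 genes lay under 14 distinct peaks in each F1 list. In F1 replicate 1 those over LBD15, AT4G39756, ERF10, AT3G10595 and NAC024 were 8089, 7731, 9191, 9139 and 7569 bp wide. Whether a width limit in the parental lists bears on their absence there was not tested.

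Most of these 16 genes had the mark in clf lists. Of the 16, 12 were marked in clf F1, 10 in clf Col and 12 in clf C24, and 8 in all 3, against 18.6%, 17.5% and 17.6% of all genes. LBD15 had 1890 bp covered in clf F1, 1933 bp in clf Col and 1685 bp in clf C24. In no clf list were 3 members, among them the MADS-box gene AGL97. The count of 16 became 130 and 194 without F1 replicates 1 and 2, 28 without Col replicate 1, and 80 and 34 without C24 replicates 1 and 2.

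Marked in F1 and Col but in no C24 list were 28 genes (0.0853%), of which 23 are protein-coding and 5 are annotated as pseudogenes. ACT9, an actin gene, had 1626 and 1626 bp covered in F1, 1626 and 1464 bp in Col and 0 bp in both C24 lists. AT5G10660 had 2253 and 2072 bp in F1, 2253 and 1733 bp in Col, and 100 and 0 bp in C24. VPS24.2, which encodes a subunit of the endosomal sorting complex, had 1305 and 1173 bp in F1, 1305 bp in each Col list and none in C24.

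The other genes named in this class were AT4G32230, AT5G40050, AT5G28145, AT5G55800, AT3G30110, AT3G45450 and AT5G55770, with 1147 to 4655 bp covered in F1 and 0 bp in C24. In the clf lists, 24 of 28 were marked in clf F1, 27 in clf Col and 0 in clf C24. Of all genes, these lists marked 18.6%, 17.5% and 17.6%. Reads were placed on TAIR10, the Col sequence. In clf C24 mRNA, COW1, a root hair growth gene, had 6.78 ± 0.0802 RPKM and AT4G24420 had 6.60 ± 0.772 RPKM (SD, n = 3). The other 26 genes were below 1 RPKM in clf C24. Whether C24 ChIP reads can be placed under the peaks of the 28 genes was not tested. A lack of the mark in C24 and a lack of matching C24 sequence thus cannot be told apart in this class. The count was 88 without F1 replicate 2, 252 without C24 replicate 1 and 45 without C24 replicate 2, and of those 45 clf C24 marked 14.

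**Figure D3:**
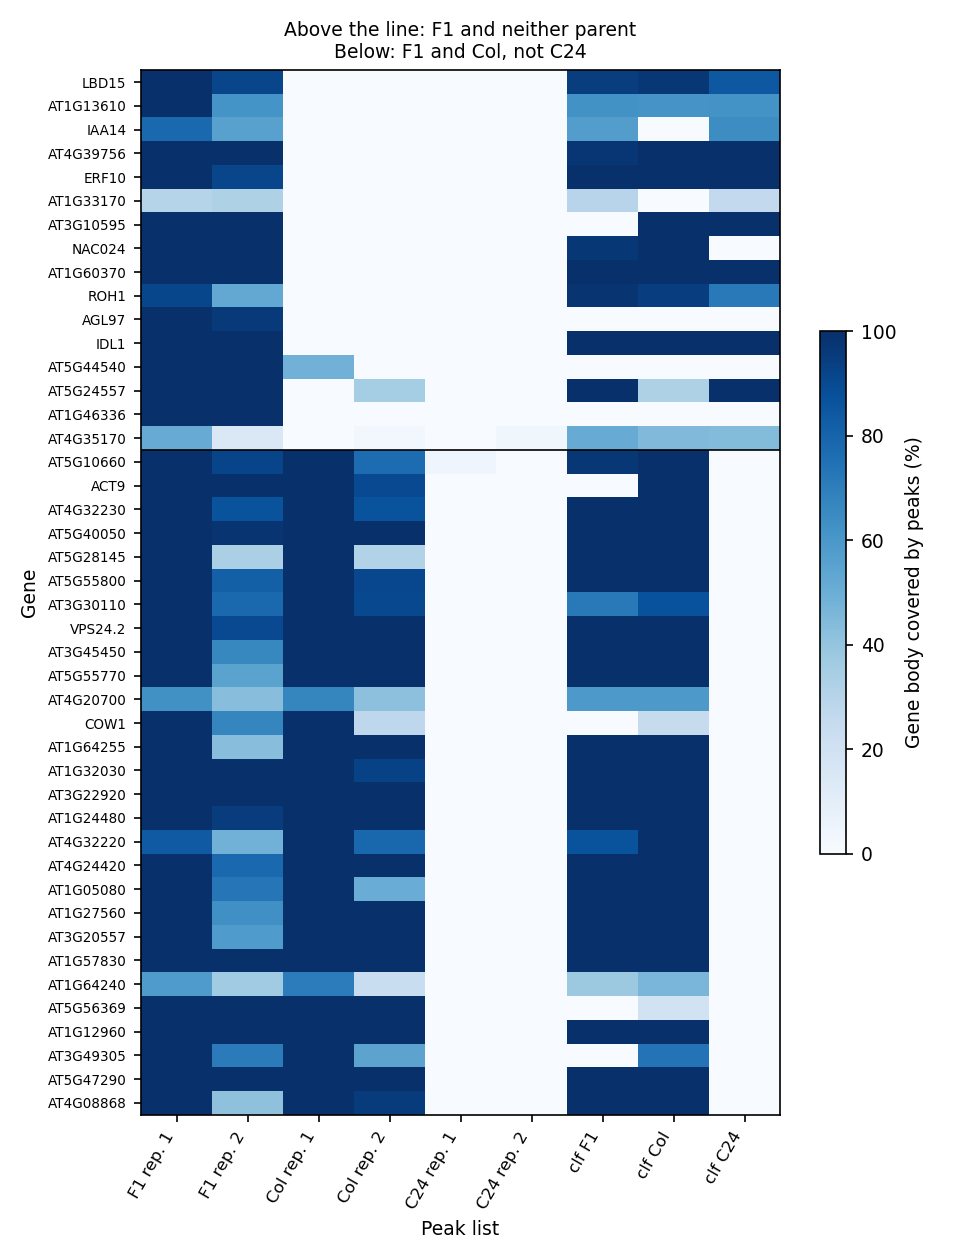
Colour gives the share of each gene body covered by peaks (%), with genes in rows and lists in columns in the order F1, Col, C24 and then the 3 clf lists. Of the 16 genes above the line, 12 are marked in clf F1, and the short genes AT5G44540 and AT5G24557 show partial colour in a Col list (173 of 360 bp and 125 of 355 bp). The 28 below it have no colour in clf C24, and in wild-type C24 AT5G10660 alone has any, at 100 bp.

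Marked in F1 and C24 but in no Col list were 127 genes (0.387%). PID2, a kinase gene related to the auxin regulator PINOID, had 2651 bp covered in each F1 list, 0 bp in both Col lists, and 2651 and 2225 bp in C24. KCS6, which elongates very long fatty acids of cuticular wax, had 2463 and 2283 bp in F1, 0 bp in Col, and 2449 and 1928 bp in C24. Among listed regulators, MAF1, a relative of the flowering repressor FLC, had 4752 and 2356 bp in F1, 0 bp in Col, and 4752 and 1558 bp in C24.

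DOG1, a regulator of seed dormancy, and YUC5, a flavin monooxygenase of auxin synthesis, were in the same class. DOG1 had 1719 and 1540 bp covered in F1, none in Col, and 1695 and 1420 bp in C24. YUC5 had 1800 and 1596 bp in F1, none in Col, and 1800 and 1349 bp in C24. The other named genes were AT5G28470, AT2G39850, AT1G12570, AT5G44440, AT3G59610, AT1G52130, AT3G58880 and the glucosyltransferase gene UGT72E1, with 1683 to 3843 bp covered in F1 replicate 1 and at most 51 bp in Col.

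Most of these 127 genes were marked in every clf list. Clf F1 marked 112 of the 127, clf Col 91 and clf C24 110, and 84 were marked in all 3. Of all genes, the clf F1, clf Col and clf C24 lists marked 18.6%, 17.5% and 17.6%. The Col and C24 lists behind this class differ in covered length (4.29 Mb in Col replicate 2), and the part of that in the class was not tested. The count was 203 and 259 without F1 replicates 1 and 2, 805 and 291 without Col replicates 1 and 2, and 191 without C24 replicate 2. Of those 191, clf F1 marked 156, clf Col 123 and clf C24 154.

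Marked in every list of a single parent and in no F1 list were 4 genes for Col and 85 for C24. The 4 Col genes (0.0122%) were AT5G45450, AT1G15560, AT2G23834 and AT2G07783. AT5G45450 had 0 bp in F1, 821 and 696 bp in Col and 0 bp in C24. AT2G07783 sat at the threshold, with 0 bp in F1, 220 and 203 bp in Col and 188 and 179 bp in C24. Its Col replicate 1 peak starts at chromosome 2, 3299176. Whether reads of the nuclear copy of mitochondrial DNA described further on bear on it was not tested. Genes with 150 to 199 bp covered numbered 173 and 46 in the F1 lists, and 125 and 31 had 200 to 249 bp.

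The 85 C24 genes (0.259%) included CYP705A4, a cytochrome P450 gene with 0 bp covered in F1, 0 bp in Col, and 1931 and 1902 bp in C24. PUP19, a purine permease gene, had 1496 and 1429 bp in C24, and DREB2C, a stress-response transcription factor gene, 2335 and 1412 bp. WOX2, which patterns the early embryo, had 756 and 1036 bp in C24 and none in F1 or Col. The others named were AT5G59100, AT1G67870, AT5G17100, AT5G17820, AT3G17560, AT4G20230 and AT2G34810.

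Clf F1 marked 44 of these 85 (51.8%), clf Col 21 (24.7%) and clf C24 53 (62.4%), and 28 were marked in no clf list. Of all genes, the clf F1, clf Col and clf C24 lists marked 18.6%, 17.5% and 17.6%. Without C24 replicate 2 the class had 412 genes, and clf C24 marked 167 of them. It had 217 and 161 genes without F1 replicates 1 and 2, and 1800 without C24 replicate 1. The Col class had 64 genes without F1 replicate 1, 54 and 678 without Col replicates 1 and 2, and 5 without C24 replicate 2. With the same number of peaks from each list (the 2879 highest by score), the classes missing from F1 held 32 genes for Col and 29 for C24, and those shared with F1 held 44 for Col and 48 for C24, and the cause of this shift was not tested.

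The 2 genes marked in all parental lists and in no F1 list (0.00609%) were AT5G64690 and AT2G07835. AT5G64690 had 0 bp in both F1 lists, 2078 and 678 bp in Col, and 1557 and 1299 bp in C24. AT2G07835 had 0 and 111 bp in F1, 562 and 528 bp in Col, and 389 and 547 bp in C24. It lies in a stretch of chromosome 2, described further on, near a nuclear copy of mitochondrial DNA in Col. Reads of near-identical copies there cannot be told apart, and their part in this class was not tested. F1 replicate 2 had a peak of 422 bp that overlapped AT2G07835, at chromosome 2, 3501242 to 3501663, and the merged region around the gene had peaks in all 6 lists. All 3 clf lists marked both genes. Without C24 replicate 2 the count was again 2. The count was 44 and 14 without F1 replicates 1 and 2, and 6 and 11 without Col replicates 1 and 2.

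Between 38.5% and 71.4% of the members of 5 lists of developmental genes were marked in both F1 lists, beside 9.92% of all genes. Of 14 floral MADS-box genes, which specify floral organs, 10 were marked in both F1 lists, 1 in a single list and 3 in none, beside 78.8% of all genes in none. The petal and stamen gene AP3 had 2175 bp covered in both F1 lists, 2175 bp in both Col lists, and 2175 and 1025 bp in C24. SEP3, a partner of the other floral factors, had 2588 bp in each F1 and Col list, and 2588 and 1080 bp in C24. AG, AP1 and STK were in no F1 list, but each was marked in Col replicate 2 and C24 replicate 2, as with AG at 4674 and 1464 bp. All 3 were marked in clf F1.

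Of 19 flowering-time genes, 11 were marked in both F1 lists, 2 in a single list and 6 in none. FT, the mobile flowering signal, had 2627 and 1103 bp in F1, 0 and 1024 bp in Col and 2627 and 0 bp in C24. FLC, the main flowering repressor, had 1022 and 0 bp in F1, 0 and 3361 bp in Col, and 2492 and 0 bp in C24. FLC was thus called in a single list of each genotype. VIN3, which acts on FLC in vernalization, had 0 and 2465 bp in F1, none in Col, and 0 and 1306 bp in C24.

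The remaining members whose state differed between genotypes were TFL1, MAF4, MAF5, AGL24, AGL19 and SVP. TFL1, which keeps the inflorescence growing, had 1373 bp in each F1 list, 1373 and 0 bp in Col, and 1373 and 997 bp in C24. MAF4 had 2722 and 1228 bp in F1, 3226 and 1314 bp in Col, and 2531 and 0 bp in C24. MAF5, AGL24 and AGL19 were marked in both F1 lists and missed in a single parental list each. SVP was marked in C24 replicate 1 alone, at 988 bp. CAL and SEP4 of the floral list were marked in both F1 lists and missed in C24 replicate 2, and CAL also in Col replicate 2.

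Of 13 meristem and homeobox genes, 5 were marked in both F1 lists, 7 in a single list and WOX2 in none. WUS, which maintains shoot stem cells, had 0 and 1941 bp in F1, 0 and 1776 bp in Col, and 0 and 1516 bp in C24. STM, KNAT2, KNAT6 and CUC2 were marked in both C24 lists but only in replicate 2 of F1 and of Col. STM, which prevents differentiation in the meristem, had 0 and 3420 bp in F1, 0 and 3482 bp in Col, and 3345 and 1863 bp in C24. WOX3, a leaf margin gene, had 1583 bp in each F1 list, 0 and 769 bp in Col, and 0 and 645 bp in C24. KNAT1 was missed in C24 replicate 1 and WOX5 in Col replicate 2.

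Seed genes were marked in both F1 lists for 8 of 12 and in a single list for 4. FUS3, a master regulator of seed maturation, had 2385 bp in each F1 and Col list, and 2385 and 2377 bp in C24. LEC1, another of these regulators, had 0 and 1109 bp in F1, 2073 and 0 bp in Col, and 2073 and 776 bp in C24. LEC2 had 0 and 2948 bp in F1, 0 and 1177 bp in Col, and 3010 and 556 bp in C24. MEA and FIS2, Polycomb genes of the endosperm, were marked in both F1 lists, MEA missing in C24 replicate 1 and FIS2 in replicate 2 of both parents.

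Of 19 genes of auxin synthesis and transport, 11 were marked in both F1 lists, 3 in a single list and 5 in none. YUC6 had 1930 and 1385 bp in F1, 0 and 1327 bp in Col, and 3281 and 1504 bp in C24. YUC9 had 1626 and 716 bp in F1, 1671 and 0 bp in Col, and 1707 and 1231 bp in C24. The auxin efflux carrier PIN3 had 0 and 1853 bp in F1, none in Col, and 0 and 859 bp in C24, and PIN4 was marked in C24 replicate 2 alone. None of the 12 active genes was marked in either F1 list, beside 78.8% of all genes in no F1 list.

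**Figure D4:**
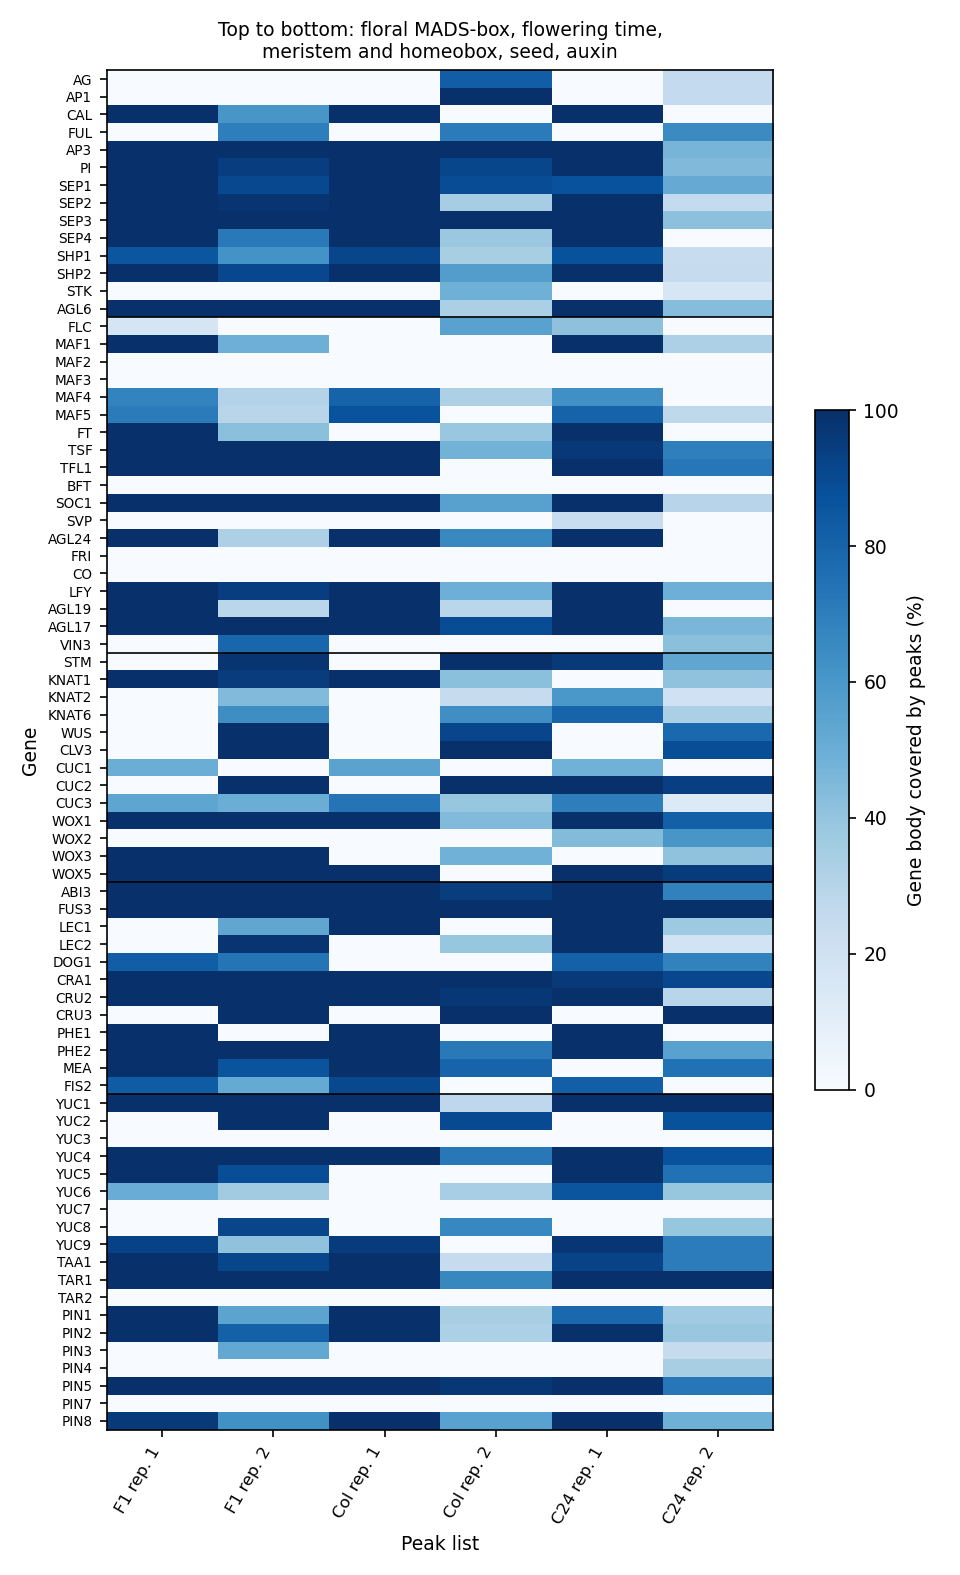
Colour gives the share of each gene body covered by peaks (%), with the floral MADS-box, flowering-time, meristem, seed and auxin genes in rows and the F1, Col and C24 lists in columns. Most rows are coloured in both F1 lists, and rows such as WUS and CLV3 are coloured in replicate 2 alone.

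Where all 6 lists had a peak, no region passed the test for a difference in tag number between F1 and its parents. Overlapping peaks were merged into 8956 regions, of which 1462 had a peak in all 6 lists, and the deposited tag numbers in these were compared. The edgeR quasi-likelihood test, adjusted by Benjamini-Hochberg, called 0 of 1462 regions (0%) for F1 against the mean of both parents' log levels, 0 (0%) against Col and 0 (0%) against C24. At an unadjusted p below 0.05 there were 2, 12 and 26 regions. This fit leaves out replicate number, so differences that same-numbered libraries share are part of its spread. With replicate number as a block, 49, 93 and 99 regions had an unadjusted p below 0.05 (edgeR), and again 0 were called. That no region was called is thus no sign that F1 and parents are equal. DESeq2's Wald test called 0, 0 and 1.

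After scaling on these same regions, values per region were close to the mid-parent for most of them. The middle 95% of log2 differences from the mid-parent ran from -0.87 to 0.47, with a median of 0.01 and a median standard error of 0.31. None lay above 1 and 28 lay below -1. Levels are tags per M tags in these regions after scaling between libraries. Because the scaling used these regions, it holds the median near no difference. Regions without a peak in every list were left out, so a peak gained or lost in F1 is not covered. The region of SEP3 had 1666 and 1682.5 tags per M in F1, 2004 and 1495 in Col and 1316 and 746 in C24. Its log2 difference was 0.32 ± 0.33 (SE; adjusted p = 0.9997, edgeR), and F1 lay within the range of the parents. The region of ABI3, another seed maturation regulator, had 1855 and 1608 tags per M in F1, 1879.5 and 1717 in Col and 1959.5 and 1468 in C24, and F1 again lay within the range of the parents.

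The biological coefficient of variation, fitted without replicate number, was 0.364. Both F1 libraries lay below all 4 parental libraries in 14 regions and above them in 14. The region with the lowest unadjusted p, picked after values were seen, holds AT2G23960, at chromosome 2, 10192337 to 10198452. It had 463 and 234 tags per M in F1, 770 and 767 in Col and 566 and 497.5 in C24, a log2 difference of -0.87 ± 0.32 (SE; unadjusted p = 0.0289, adjusted p = 0.9997, edgeR).

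The lowest F1 values gathered on chromosome 2 between regions starting at 3398389 and 3617966, picked after values were seen, near a nuclear copy of mitochondrial DNA in Col. The region of AT2G07835 had 46.6 and 288 tags per M in F1, 151 and 784 in Col and 76.3 and 1004 in C24. That of AT2G08986 had 239 and 1398 in F1, 65.1 and 3147 in Col and 292 and 4788 in C24. Replicate 2 was higher than replicate 1 in every genotype for both, the standard errors of their log2 differences were 1.22 and 1.58, and reads of near-identical copies cannot be told apart.

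Genes with the mark were mostly silent in clf shoots, where mRNA was measured (wild-type mRNA was not analysed here). The 1388 genes marked in all 6 lists had a median of 0.0783 RPKM in clf F1, 0.0567 in clf Col and 0.0833 in clf C24, and 76.2% of them in clf F1 were below 1 RPKM. Genes marked in no list had 3.07, 3.25 and 3.69 RPKM, and 41.0% in clf F1 were below 1. Genes shared by F1 with C24 alone had a median of 0.0567 RPKM in clf F1, 0.0183 in clf Col and 0.0767 in clf C24, and those shared with Col alone 0 in each.

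Exceptions with high mRNA occurred among the genes marked in all 6 lists and in the classes of a single parent. Of the former, ESP had 1645 ± 17.4 RPKM in clf F1, 17.2 ± 2.31 in clf Col and 2567 ± 49.6 in clf C24 (SD, n = 3). TGG2, also of the former, had 775 ± 32.9 RPKM in clf F1, 503 ± 17.8 in clf Col and 566 ± 70.3 in clf C24 (SD, n = 3). KCS6, marked in F1 and C24, had 108 ± 3.68 RPKM in clf F1, 116 ± 8.61 in clf Col and 103 ± 1.30 in clf C24 (SD, n = 3). AT1G67870, marked in C24 alone, had 140 ± 10.8 RPKM in clf F1, 203 ± 15.4 in clf Col and 67.8 ± 4.96 in clf C24 (SD, n = 3). AT2G39850 had 12.7 ± 0.933 RPKM in clf F1, 14.5 ± 0.400 in clf Col and 6.13 ± 1.19 in clf C24 (SD, n = 3), with the mark in all 3 clf lists. These levels are from clf plants and say nothing of wild-type mRNA.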

How the data were processed

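H3K27me3 ChIP-seq and mRNA-seq were made from seedling shoots. Per the submitters' processing notes, Bowtie, TopHat and the TAIR10 build were used, with no version or role; the sources used here do not name the peak caller, the control or any filter. The deposited peak lists, 1 per library, hold positions, a tag count per peak (not normalized), a score and a fold enrichment, the last 2 being the authors' own values. The mRNA values are RPKM deposited by the authors, 1 file per library, with the unit read from the values. The total reads per library are unknown, so depth is given as tags in peaks.

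Genes were the 33559 IDs of the mRNA files, of which 32815 matched nuclear genes of a RefSeq table (TAIR10.1). Their gene bodies were used for cover alone, and 1084 were shorter than 200 bp. Positions are 1-based, and peaks of the organelles were left out. Members and gene lists (9 lists, 128 members) were chosen with earlier results of these data known. Genes were named by class, the 10 with the largest smallest cover over the lists that mark them, and every list member whose state differed between genotypes was eligible; MAF1, DOG1, YUC5 and WOX2 came from those lists. AGL97, COW1, AT4G24420, AT5G44540 and AT5G24557 were named after their values were seen, and genes said to be picked after their values were seen lie outside the rule. So do the mRNA exceptions. No region was named by the rule, since none was called.

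Tag counts of regions with a peak in all 6 lists were fitted with edgeR 4.0.16 (TMM scaling, quasi-likelihood test, limma 3.58.1, R 4.3.3), with 1 coefficient per genotype, and adjusted over the 1462 regions at 0.05. The test was also run on simulated data in which libraries varied independently. Same-numbered libraries here deviated together, so the outcome of that run is not used as support. Alternatives were DESeq2 1.42.0, its size factors, a replicate block, a cover offset, a merge gap of 500 bp, at least 50 tags, a score of at least 100, other cover rules, equal list lengths, leaving out each library and an arithmetic mid-parent. Exact permutation tests used scipy 1.17.1.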

Additional observations from a re-analysis of the deposited data

Results flagged for a closer look

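Peaks outside the nuclear chromosomes were not used in any comparison. Mitochondrial peaks numbered 9 in F1 replicate 1 and 15 in F1 replicate 2, 14 and 19 in Col replicates 1 and 2, and 14 and 24 in C24. They were singled out because no comparison used them. They are not read as H3K27me3 here, and their source was not tested. The clf lists held 19 in clf F1, 18 in clf Col and 24 in clf C24.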

How the results depend on the processing

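Requiring 50% of an F1 peak to be covered gave 76.2% shared with both parents in either list and 4.33% with neither. With equal list lengths, the highest 2879 by score, 2.85% had neither; 848 genes were marked in F1 and both parents, 8 in F1 alone, 44 in F1 and Col, 48 in F1 and C24, 32 in Col alone and 29 in C24 alone. At a score of at least 100 the counts were 693 (F1 and both), 11 (F1 and Col), 1 (Col alone), 54 (C24 alone) and 0 (both parents and not F1), and the shares of single-parent genes marked in both F1 lists were 20% (Col) and 35.8% (C24). Covering 500 bp left 1 gene marked in both parents and not F1, and covering 50% of the gene body gave 25 genes in F1 alone and 43 in C24 alone. The cause of these shifts was not tested. Within replicate number, leaving out a library removed its whole replicate number. The shares of F1 peaks were then those of replicate 2 (48.6% with both parents, 16.3% with neither) or of replicate 1 (73.7% and 3.74%). With either list of a parent, leaving out each library in turn gave 45.7% to 84.4% with both and 2.47% to 6.72% with neither. Class counts could only stay equal or grow, since the genotype was then judged by its remaining list. They were 1400 to 2066 genes in F1 and both, 23 to 194 in F1 alone, and 2 to 44 in both parents and not F1. For a single parent they were 29 to 252 in F1 and Col, 145 to 805 in F1 and C24, 4 to 678 in Col alone and 89 to 1800 in C24 alone. Shares of single-parent genes marked in every F1 list kept were 3.25% to 94.6% (Col) and 6.29% to 61.7% (C24). Tag calls were 0 in all 3 comparisons when each library was left out, with the lone library of that genotype assumed to vary like the other groups; 0 calls say nothing of stability.

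For tags, F1 against C24 gave 1 call with DESeq2's Wald test and 1 with the replicate block and the covered length together, an alternative chosen after seeing the data; every other setting gave 0. With replicate number as a block, edgeR called 0 regions in all 3 comparisons, and 49, 93 and 99 had an unadjusted p below 0.05. Same-numbered libraries deviated together (r = 0.725 for F1 and Col, 0.670 for F1 and C24, 0.683 for Col and C24), but with 2 numbers per genotype they were not treated as pairs. Tags in peaks ran from 0.841 M to 8.27 M per library, and what part this has in the counts was not tested.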

Other observations

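Glucosinolate genes, which make and break down mustard oil precursors, were marked in both F1 lists for 6 of 8 (all genes 9.92%), while 2 were marked in a single F1 list. AOP2 and AOP3, side-chain enzymes, had 2409 and 2592 bp covered in each F1 list, 2409 and 2592 bp in each Col list, and 2409 and 2592 bp in C24 replicate 1. MAM3, a chain-elongation enzyme, had 0 and 2200 bp in F1, 3749 and 1288 bp in Col, and 3749 and 1409 bp in C24. TGG1, a myrosinase, had 0 and 2933 bp in F1, 0 and 1481 bp in Col, and 2933 and 518 bp in C24.

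Of 18 immune receptor and RPW8-type genes, 1 (5.56%) was marked in both F1 lists, 5 in a single list and 12 in none. Of all genes, 9.92% were in both F1 lists and 78.8% in none. With 18 members, no difference from these shares is read. RLM3, a resistance gene, had 3865 and 2474 bp in F1, 4272 and 0 bp in Col, and 3682 and 1163 bp in C24. HR4 had 0 bp in F1, 1250 and 0 bp in Col, and 0 bp in C24, while HR1, HR2 and HR3 were marked in replicate 1 of all 3 genotypes. SNC1 had 0 and 1011 bp in F1, none in Col, and 0 and 2546 bp in C24. ADR1 had 1265 and 0 bp in F1, none in Col, and 1178 and 855 bp in C24, and RPP5 was marked in C24 replicate 2 alone.

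Of 13 Polycomb and demethylase genes, EMF1 was marked in all 6 lists, with 3481 and 2214 bp in F1, 3712 and 1943 bp in Col, and 3284 and 1421 bp in C24, and the other 12 in none, beside 4.23% of all genes marked in all 6 lists and 69.5% in none.

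In the class shared by F1 and C24, AT4G16870 had 20.6 ± 1.67 RPKM in clf F1 and 41.7 ± 2.44 RPKM in clf Col (SD, n = 3), and was listed at 0 in all 3 clf C24 libraries. In the class of C24 alone, AT5G17100 had 6.41 ± 0.575 RPKM in clf F1, was listed at 0 in all 3 clf Col libraries and had 13.9 ± 1.06 RPKM in clf C24 (SD, n = 3). Both genes were picked after their values were seen.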
